A study of Mus musculus with 16 samples.

Results

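The 4 arrays described here are the astrocyte arrays of a series of 16 whose treatment is the same in both deposited sources, the scanner files and the table of processed values. They are control replicates 1 and 3 and Klotho replicates 2 and 4, that is 4 of the 8 astrocyte arrays. The 4 other astrocyte arrays are assigned to opposite treatments by the 2 sources, and 8 arrays are of neurons. The astrocytes are primary cortical cultures of C57BL/6 mice. Controls received 1xPBS vehicle for 24 h, and the treated cultures received recombinant secreted Klotho at 1 nM for the same time. All 4 arrays share the other culture steps. Cortex of pups at postnatal day 0 to 5 was dissociated, grown in 10% serum and shaken for 15 h to leave more than 98% astrocytes, per the labels' protocols. The sample labels also carry stage E16 for these cultures, which does not match the pups of the growth protocol. No label states that the 2 arrays of a treatment are separate cultures. The p-values below therefore describe the spread among these arrays alone, taken mostly from all genes together, and that spread may be technical. By its title the study is about Klotho and glycolysis in astrocytes, and the comparison asks which transcripts differ with Klotho.

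Astrocytes support neurons with lactate, take up glutamate, and answer inflammatory signals. Receptors of the Toll-like family and receptors for interleukin-1 and tumour necrosis factor release NF-kappaB from its inhibitor proteins. NF-kappaB then enters the nucleus and turns on genes for cytokines, for chemokines that draw leukocytes, and for its own inhibitors. Interferon-beta made in such a response acts back on cells through JAK-STAT signalling, and the factors it activates bind the interferon-stimulated response element (ISRE). Klotho is known as a co-receptor that lets FGF receptors bind endocrine FGFs, and its shed form circulates.

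The promoters of some of the genes with the largest differences hold a match to a short NF-kappaB or ISRE motif, and those of others hold none. Shown are 5 with a match, whose genes come back below. The sequences are the 250 bases before the annotated start, read 5′ to 3′ on the gene's strand, from RefSeq on build GRCm38.p6. Capitals mark a match on either strand to the NF-kappaB motif (GGG, any 2 bases, then TTTCC) or to the ISRE (GAAA, any 2 bases, then GAAA). The 3 promoters of Il6 (chr5:30012864-30013113, plus strand), Cxcl1 (chr5:90890995-90891244, plus strand) and Tnfaip3 (chr10:19015411-19015660, minus strand, the first of 2 starts listed) carry the NF-kappaB motif.
Il6: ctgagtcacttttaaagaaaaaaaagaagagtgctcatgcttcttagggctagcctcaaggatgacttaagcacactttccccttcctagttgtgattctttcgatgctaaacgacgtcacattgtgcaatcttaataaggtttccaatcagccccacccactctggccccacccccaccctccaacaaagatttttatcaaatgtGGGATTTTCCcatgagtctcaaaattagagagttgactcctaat
Cxcl1: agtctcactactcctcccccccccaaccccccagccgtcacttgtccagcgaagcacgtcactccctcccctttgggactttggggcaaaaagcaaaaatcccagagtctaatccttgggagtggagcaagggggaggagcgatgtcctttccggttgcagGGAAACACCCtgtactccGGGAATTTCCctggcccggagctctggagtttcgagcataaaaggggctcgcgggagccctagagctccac
Tnfaip3: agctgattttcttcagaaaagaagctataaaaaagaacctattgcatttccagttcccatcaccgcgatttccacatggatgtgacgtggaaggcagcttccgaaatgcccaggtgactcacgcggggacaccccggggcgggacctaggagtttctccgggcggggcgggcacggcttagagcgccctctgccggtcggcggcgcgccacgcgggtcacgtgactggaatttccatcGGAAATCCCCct
The promoters of Cxcl10 (chr5:92348890-92349139, minus strand) and Rsad2 (chr12:26456453-26456702, minus strand) carry the ISRE letters.
Cxcl10: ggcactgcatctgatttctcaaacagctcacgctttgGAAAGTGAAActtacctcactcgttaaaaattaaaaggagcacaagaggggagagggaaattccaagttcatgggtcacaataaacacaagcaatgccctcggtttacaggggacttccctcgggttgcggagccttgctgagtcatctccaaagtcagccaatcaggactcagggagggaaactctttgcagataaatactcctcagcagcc
Rsad2: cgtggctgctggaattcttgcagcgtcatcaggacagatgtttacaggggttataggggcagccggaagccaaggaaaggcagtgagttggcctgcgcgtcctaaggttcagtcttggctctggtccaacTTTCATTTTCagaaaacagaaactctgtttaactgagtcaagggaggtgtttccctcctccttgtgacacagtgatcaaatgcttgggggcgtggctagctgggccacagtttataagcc
The capitals begin 44 bases before the start in Il6, 89 and 71 bases before it in Cxcl1, and 12 bases before it in Tnfaip3. They begin 213 bases before the start in Cxcl10 and 120 bases before it in Rsad2. The matches do not overlap each other. The promoters of Csf2, Ifnb1, Tnf, Il1b, Lif, Ptgs2, Ptx3, Cxcl9 and Icam1 held neither motif in this window (0 and 0 matches each). The promoter at the second start of Tnfaip3 also held neither. A promoter without these exact letters can hold the element in another form, so 0 matches do not show that it is absent. Those of Cxcl2 and Nfkbia held the NF-kappaB motif and are not shown.

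RNA was measured as the brightness of Cy3-labelled probes, and each level below is the log2 processed intensity relative to the 75th percentile of the same array. A level of 0 is therefore that percentile, and a level says nothing about one gene against another. The arrays had between 61.9% and 67.3% of spots well above background and 0 saturated spots. Control 1 and Klotho 2 lie in row 1 of their slides and control 3 and Klotho 4 in row 2. Both controls are on 1 slide and both Klotho arrays on another, in a different column, so treatment, slide and column cannot be told apart. Astrocyte markers were present on every array. The glial filament gene Gfap had levels of 6.38, 5.37, 6.45 and 5.85 on control 1, control 3, Klotho 2 and Klotho 4, the order used throughout. The folate enzyme gene Aldh1l1 had 6.33, 5.51, 5.58 and 5.97. All 25 listed homeostatic astrocyte genes were well above background on all 4 arrays. So were all 21 listed microglia markers, among them the receptor gene Csf1r with levels of 5.38, 5.40, 4.49 and 5.63.

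Klotho-treated astrocyte cultures had far more RNA of inflammatory mediators than the controls. Csf2, the gene of the growth factor GM-CSF, was at least 633-fold higher. Cxcl1 was higher by 9.40 ± 0.69 (log2 difference ± SE, n = 2 against 2) and Nos2, the inducible nitric oxide synthase, by 6.81 ± 0.42. Il6 differed by 10.81 ± 0.62, a value that rests in part on the background, since 1 of its 2 controls was not well above it. Of 29189 units tested (15851 of them genes with a symbol), 159 were called higher (0.545%) and 4 lower (0.0137%) by limma at an adjusted p under 0.05, with the row as a term, or 163 in either direction (0.558%). A unit is the brightest probe of a gene, or a probe with no symbol. Of the called units with a symbol, 134 were higher and 3 lower. Without a test, 1032 units (3.54%) were at least 2-fold higher within both rows and 303 (1.04%) at least 2-fold lower. Of the 15851 genes with a symbol 658 were at least 2-fold higher within both rows and 118 at least 2-fold lower. The lists below hold only genes with a symbol. The shares of all units set beside them include probes with no symbol, among which fewer were called higher.

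The counts of calls varied with the fit. With 4 arrays and a row term 1 residual degree of freedom is left. To this limma adds 5.085 prior degrees of freedom from the variance of all units. The SE and p of a gene thus rest mostly on that pooled variance, not on its own arrays. Without the row term 2 units were called higher, Csf2 and Ifnb1, and 0 lower, where 1369 units had an unadjusted p under 0.05. Leaving out 1 array, also with no row term, gave 1318 units higher without control 1, 3865 without control 3, 3 without Klotho 2 (Csf2, Ifnb1 and Il6) and 6 without Klotho 4, which included Csf2, Ifnb1, Il6 and Il12b. With normexp background correction, which adds an offset of 50, the log2 change was 7.54 for Csf2, 8.93 for Il6 and 6.40 for Nos2, all still called, and -0.70 for Ugt8a and -0.94 for Clca3a2, whose calls were lost. An exact permutation test of a single gene could not go below p = 0.333 with 2 arrays against 2.

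The rows were compared over all units. Over tested units the within-row differences correlated with r = 0.300 across units, which are not independent and share the arrays' centring. In 14580 units (50%) the difference had opposite signs in the rows. Both Klotho arrays lay above both controls in 3436 units and below both in 5135, so groups that do not overlap are common. The median change was -0.04. The plot of the within-row differences shows the called genes large in both rows, which a fit with a row term on 4 arrays requires of them.

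**Figure D1:**
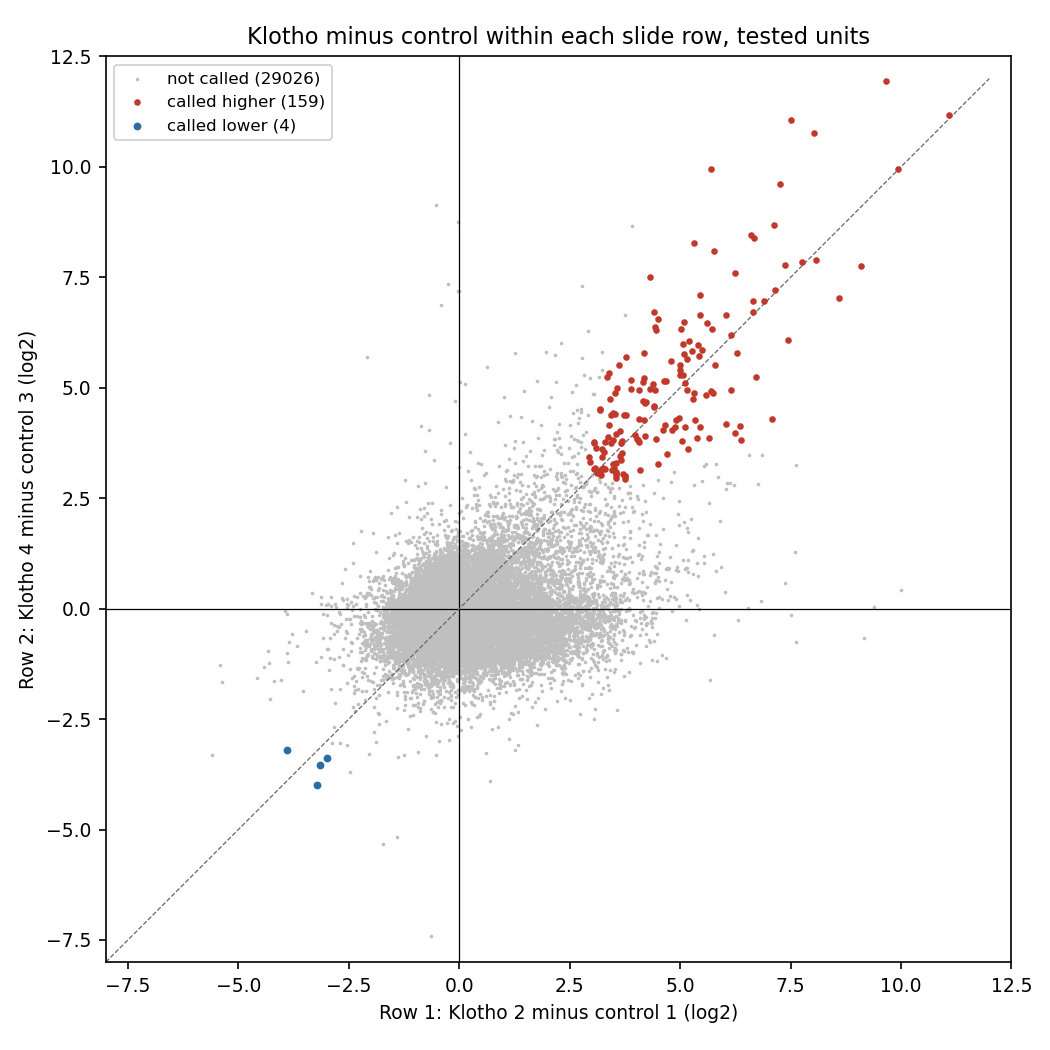
Each point is 1 of the 29189 tested units, with the log2 difference Klotho 2 minus control 1 on the x axis and Klotho 4 minus control 3 on the y axis. Units called higher (159, red) and lower (4, blue) have large differences of the same sign in both rows, as the fit requires, and the uncalled units spread widely around 0. The dashed line marks equal change, from which called genes such as Ccl7 (5.69 and 9.96) can lie far.

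Several cytokine genes rose. All 20 listed cytokine genes were on the array and tested. Of these 13 were called higher, against 0.545% of all units, 0 were called lower, and 17 were at least 2-fold higher in both rows, against 3.54%. Of the 20 genes 11 entered the test only through the Klotho arrays, where they were high, so these counts are no measure of the list. Of the 9 above background on all 4 arrays 4 were called higher, beside 83 of all 26191 such units. Over these 9 the median log2 change was 2.66, beside -0.06 over the 26191. The 13 were Csf2, Ifnb1, Csf3, Il6, Tslp, Il12b, Tnf, Il1a, Il1b, Lif, Il23a, Il11 and Tnfsf9.

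Il6, the gene of interleukin-6, had levels of -4.28, -6.34, 5.40 and 5.60. The Klotho arrays lay close together and far above both controls, and 1 of the 2 controls was not well above background. The adjusted p of limma was 0.00786. Csf2 had levels of -7.83, -7.48, 3.26 and 3.71, with neither control above background and an adjusted p of 0.00404. It entered the test only through the Klotho arrays, as did Ifnb1, Csf3, Il12b and Tslp. Such genes have a bound in place of a fold, the mean of the Klotho arrays against the higher of the probe's own signal and the lowest signal above background on each control array. Ifnb1, the gene of interferon-beta, had levels of -7.39, -7.54, 2.55 and 2.41 and was at least 317-fold higher (adjusted p = 0.00404). Csf3, the gene of the granulocyte factor G-CSF, had levels of -7.41, -6.06, 0.66 and 1.84 and was at least 135-fold higher (adjusted p = 0.00786). The bounds of Il12b, which encodes the shared subunit of interleukins 12 and 23, and of Tslp, an epithelial and stromal cytokine, were 86.5-fold and 36.9-fold.

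Tnf, the gene of tumour necrosis factor, was above background on every array, with levels of -1.54, -2.75, 4.62 and 3.43. In both groups the row 1 array was higher than the row 2 array, and the groups did not overlap. The change was 6.17 ± 0.41 (adjusted p = 0.0101). Lif, a cytokine of the interleukin-6 family, had levels of -3.66, -3.53, 1.45 and 1.57, with close replicates in both groups. Il1b had levels of -2.999, -6.25, 3.61 and 2.21, so the controls differed by more than the Klotho arrays did, and still lay below both, and 1 of them was not well above background.

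**Figure D2:**
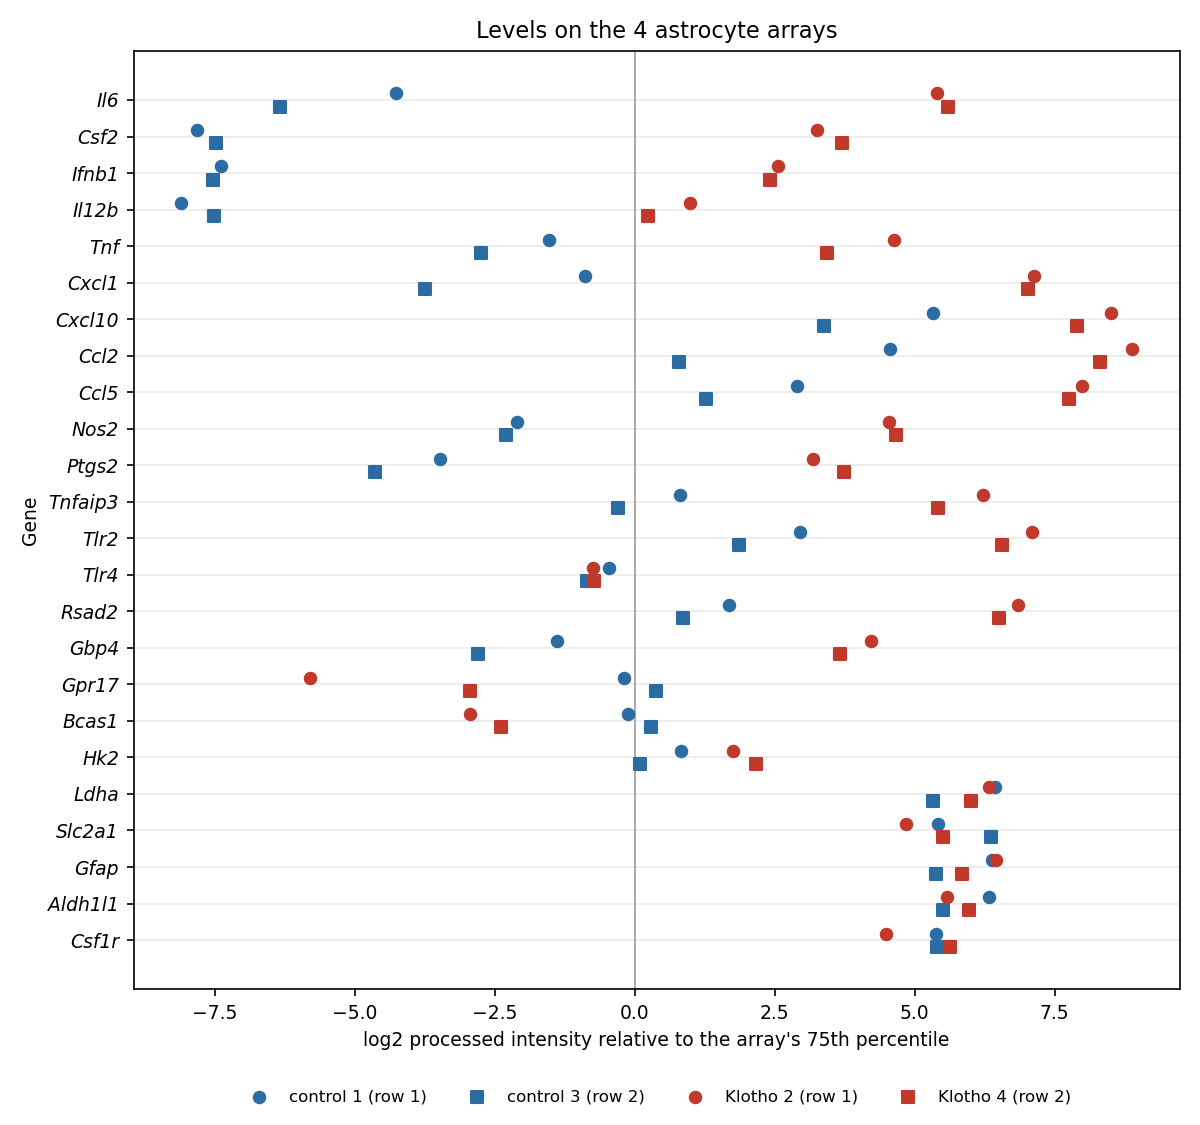
Levels of 24 genes (y axis) on the 4 arrays, as log2 processed intensity relative to the array's 75th percentile (x axis), with circles for row 1, squares for row 2, blue for control and red for Klotho. Cytokine, chemokine and interferon genes have both red points right of both blue points, Gpr17 and Bcas1 have them to the left, and Tlr4, Gfap, Ldha and Csf1r overlap.

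Chemokine genes rose in part, both those of the CXC and those of the CC family. Of the 16 listed CXC and CX3C genes 15 were on the array and 11 tested, of which 6 were called higher (Cxcl9, Cxcl1, Cxcl3, Cxcl2, Cxcl5 and Cxcl10). Of the 19 CC genes 14 were tested and 6 called higher (Ccl3, Ccl5, Ccl4, Ccl8, Ccl7 and Ccl2), and 0 of either list were called lower, against 0.545% higher of all units. Of these tested genes 4 of the first list and 2 of the second entered only through the Klotho arrays. Among those above background on all 4 arrays, 3 of 7 CXC and CX3C genes and 5 of 12 CC genes were called higher, and the median log2 changes were 1.83 and 2.37.

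Cxcl1, which draws neutrophils, had levels of -0.90, -3.74, 7.13 and 7.03. The Klotho arrays differed by little and the controls by much, and the adjusted p was 0.0101. Its neighbour Cxcl2 showed the same arrangement, with levels of -3.76, -7.64, 3.75 and 3.42 and 1 control not well above background. Ccl2, the monocyte chemokine, had levels of 4.56, 0.79, 8.89 and 8.31. Control 1 stood well above control 3, so that the difference was 4.32 in row 1 and 7.51 in row 2 (5.92 ± 0.77, adjusted p = 0.0450). Ccl5, a chemokine for T cells and monocytes, had levels of 2.90, 1.27, 7.99 and 7.76 (5.79 ± 0.50, adjusted p = 0.0125). Cxcl10, an interferon-induced chemokine for T cells, had levels of 5.33, 3.37, 8.51 and 7.90 (3.86 ± 0.49, adjusted p = 0.0432). In all 5 of these genes control 1 was higher than control 3.

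That order held beyond the chemokines. Among the 134 genes called higher, control 1 was above control 3 in 97, where over all tested units it was above in 46.7%. Klotho 2, also of row 1, was above Klotho 4 in 94 of them, beside 52% of all tested units. These shares include probes with no symbol, which the 134 do not. Over all tested genes with a symbol the median level was 0.76 on control 1 and 0.47 on control 3. It was 0.62 on Klotho 2 and 0.55 on Klotho 4, so the order is not particular to the called genes. Over tested units r was 0.934 between the controls, 0.984 between the Klotho arrays, 0.952 within row 1 and 0.965 within row 2. In 41 of the 134 no control was well above background and in 19 only 1 was, so there the order of the controls rests on the background. Over the 134 genes the median SD was 0.592 between the controls and 0.361 between the Klotho arrays.

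Of the inducible enzymes and secreted proteins of inflammation, those for nitric oxide, prostaglandins and itaconate rose. Of 20 listed genes 18 were tested, 6 were called higher (Nos2, Ptgs2, Acod1, Arg2, Mmp13 and Saa3), and 12 were at least 2-fold higher in both rows, against 0.545% and 3.54% of all units. Of the 15 above background on all 4 arrays 5 were called. Nos2 had levels of -2.10, -2.30, 4.55 and 4.67, with tight pairs in both groups (adjusted p = 0.00797). Ptgs2, the prostaglandin synthase COX-2, had levels of -3.49, -4.64, 3.19 and 3.74 and changed by 7.53 ± 0.54 (adjusted p = 0.0101). Acod1, which makes itaconate from an intermediate of the citric acid cycle, had levels of -0.27, -2.43, 5.19 and 4.23 and changed by 6.06 ± 0.48 (adjusted p = 0.0116). Arg2, a mitochondrial arginase, was above background only on the Klotho arrays and was at least 9.18-fold higher. Sod2, the mitochondrial superoxide dismutase, had levels of 5.33, 3.88, 6.46 and 6.34 and was not called (adjusted p = 0.345).

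Of the genes of NF-kappaB itself and of its feedback, several inhibitors rose. Of the 22 listed 21 were tested and all 21 were above background on every array, with 20 changes above 0. The count called higher was 7 (Tnfaip3, Tnfaip2, Birc3, Cd83, Icam1, Nfkbie and Nfkbia), 17 were at least 2-fold higher in both rows (0.545% and 3.54% of all units), and the median change was 2.20, with 2.27 in row 1 and 2.12 in row 2. Tnfaip3, the ubiquitin-editing inhibitor A20, had levels of 0.80, -0.30, 6.23 and 5.42. The pairs did not overlap, and the change was 5.58 ± 0.41 (adjusted p = 0.0101). Birc3, an inhibitor of apoptosis, had levels of -2.14, -3.53, 1.51 and 0.49 and changed by 3.84 ± 0.42 (adjusted p = 0.0265).

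Receptors upstream of NF-kappaB changed in part. Of 32 listed receptors and adaptors 30 were tested, 3 were called higher, 0 lower, and 9 were at least 2-fold higher in both rows (0.545% and 3.54% of all units), with a median of 0.14 over the 29 above background on all 4 arrays. The 3 were Tlr2, a receptor for bacterial lipopeptides, Ripk2, the kinase that signals from NOD receptors, and Nod2. Nod2 entered the test only through the Klotho arrays, where it was high. Among the 29 above background on all 4 arrays 2 were called higher. Tlr2 had levels of 2.94, 1.86, 7.10 and 6.56 (4.43 ± 0.42, adjusted p = 0.0184). Tlr4, the receptor for lipopolysaccharide, is named here after its values were seen, and had levels of -0.46, -0.85, -0.74 and -0.73. Its groups overlapped (-0.08 ± 0.42, adjusted p = 0.989). The shared adaptor Myd88 had levels of 1.59, 0.23, 3.30 and 2.75 and was not called (2.11 ± 0.44, adjusted p = 0.177).

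All 30 interferon response genes on the array (of 32 listed) were above background on every array, and all 30 changes were above 0, as were 11633 of the 26191 units above background on all 4 arrays. The count called higher was 4, with 23 at least 2-fold higher in both rows (0.545% and 3.54% of all units), and a median change of 1.87 (1.58 in row 1 and 2.16 in row 2). The 4 were Rsad2, the antiviral protein viperin, the guanylate-binding protein gene Gbp5, Oasl1 and the transcription factor gene Irf1. Rsad2 had levels of 1.69, 0.86, 6.84 and 6.51 (5.40 ± 0.42, adjusted p = 0.0116). Gbp4, outside the list, had levels of -1.38, -2.80, 4.22 and 3.66 (6.03 ± 0.45, adjusted p = 0.0101). Both genes had tight Klotho pairs above both controls. The feedback genes of JAK-STAT signalling had a median change of 1.02 over 16 genes. Of the 18 listed 17 were tested and 0 called, while 8 were at least 2-fold higher in both rows, against 3.54%. Socs1, which inhibits JAK kinases, had levels of -0.05, -0.47, 3.12 and 2.46 (3.06 ± 0.41, adjusted p = 0.0523).

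**Figure D3:**
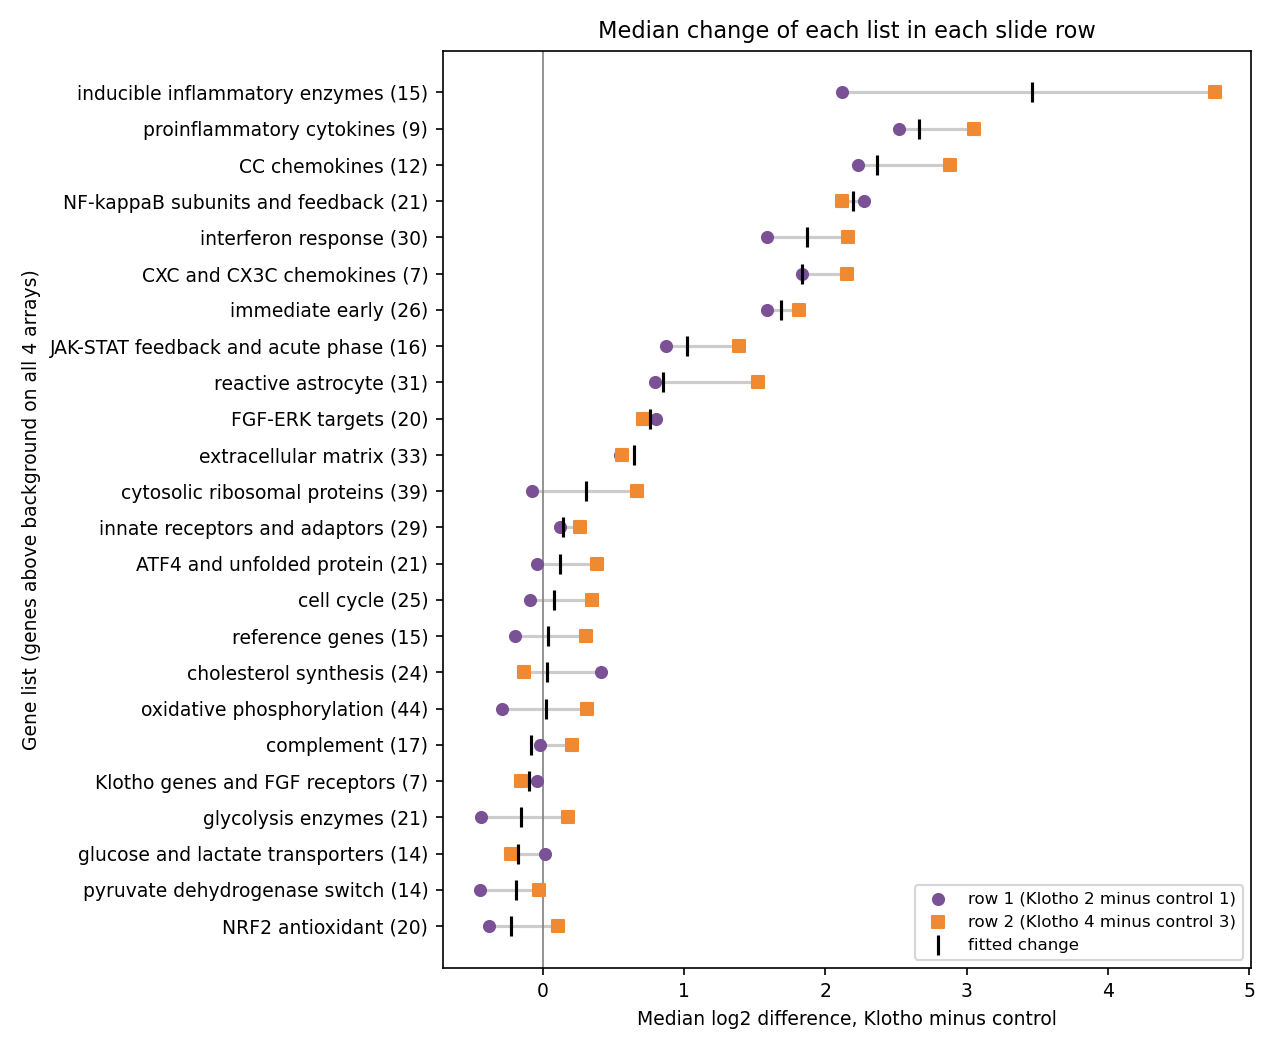
Median log2 difference of each pathway list (y axis, with the number of genes above background on all 4 arrays) in row 1 (circles), row 2 (squares) and as the median of the fitted changes (bars). Inflammatory, interferon and immediate early lists lie right of 0 in both rows, and the lists of glycolysis, oxidative phosphorylation and reference genes lie on opposite sides of 0 in the 2 rows.

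The motifs printed above were counted in the promoters of all tested genes. The share of promoters (250 bases before to 50 after the start) with the NF-kappaB motif was 2.02% over the 12576 tested genes with a promoter in the table, and 6.29% (30 of 477) over genes at least 2-fold higher in both rows. For the ISRE the shares were 3.85% and 13.4% (64 of 477). Genes at least 2-fold lower held them in 2.27% and 3.41% of 88 promoters. Over all 32851 promoters in the table the shares were 1.63% and 3.44%. The ISRE letters stood in 13 of 25 promoters of the interferon list (52%) and in 0 of 14 promoters of the cytokine list, and the NF-kappaB letters in 1 of 25 (4%) and 4 of 14 (28.6%). These shares are descriptions with no test.

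**Figure D4:**
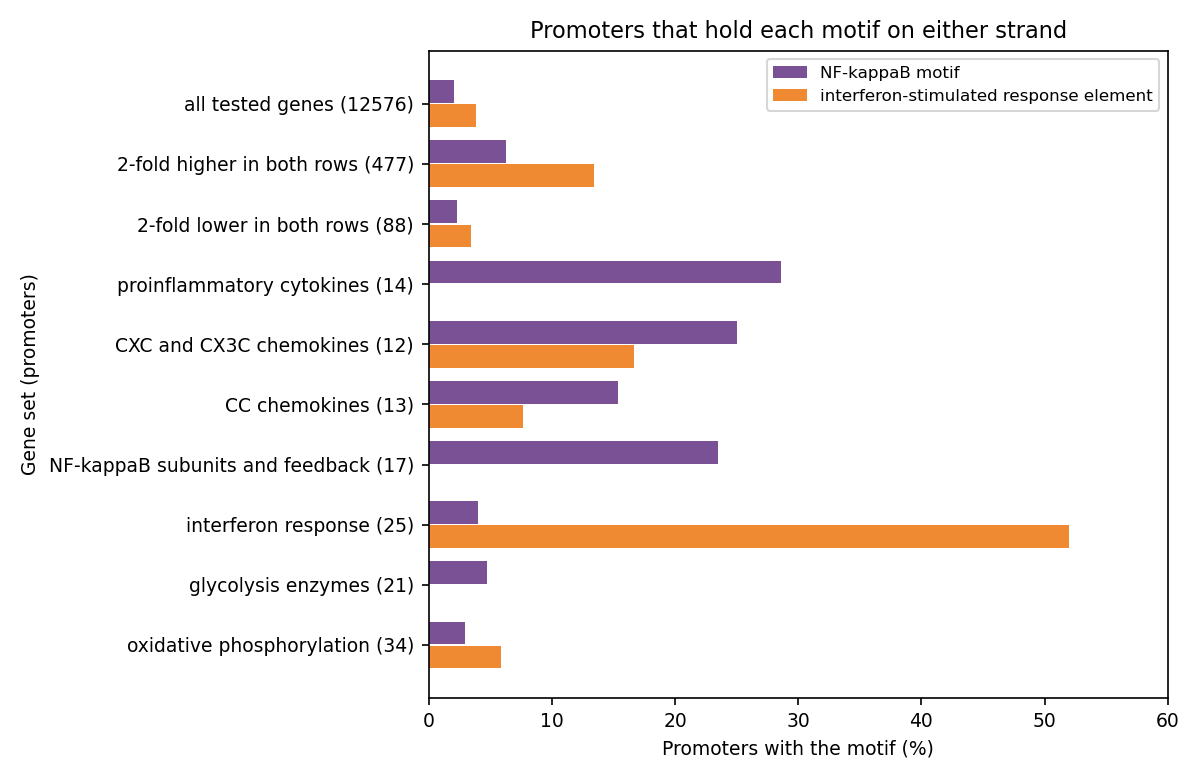
Percent of promoters (x axis) with the NF-kappaB motif (purple) or the ISRE (orange) in each gene set (y axis, with the number of promoters). The longest bar is the ISRE share of the interferon list, 52%, and the 2-fold lower genes have shares near those of all tested genes.

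Genes that answer growth factor and calcium signals within minutes rose in part. Of 29 listed immediate early genes 27 were tested and 2 were called higher (Egr2 and Fosl1), against 0.545% of all units. At least 2-fold higher in both rows were 18, against 3.54%. The median was 1.68 over the 26 above background on all 4 arrays. Egr2, a zinc finger transcription factor, had levels of -3.57, -3.28, 2.60 and 1.68 (5.56 ± 0.48, adjusted p = 0.0125). Egr1 had levels of 0.86, 0.63, 4.72 and 3.39 and was not called (3.31 ± 0.47, adjusted p = 0.0576). The 22 targets of FGF and ERK signalling hold some of the same genes. Of these 21 were tested and 1 was called higher (Fosl1), against 0.545% of all units. The median change over 20 genes was 0.76.

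The receptors that Klotho is known to work with did not pass the test. The genes Kl and Klb were not well above background on any of the 4 arrays. Of the 11 listed Klotho and FGF receptor genes 7 were tested and 0 called, with a median of -0.10. Fgfr1 had levels of 5.96, 6.50, 6.23 and 6.30, with overlapping groups. Fgfr2 had levels of 0.66, 0.45, 0.29 and 0.36, and Fgfr3 had 4.32, 4.45, 3.20 and 4.05, in both cases with the Klotho arrays lower and the tests missed (adjusted p = 0.987 and 0.887).

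Genes of glucose metabolism, the theme of the series, gave 0 calls. All 21 glycolysis enzymes were above background on every array, with 8 changes above 0 and 13 below, and a median of -0.15 that was -0.44 in row 1 and 0.18 in row 2. The 14 genes of the pyruvate dehydrogenase switch and the 44 of oxidative phosphorylation had medians of -0.19 and 0.02. None of these 3 lists had a gene at least 2-fold different in both rows (0 higher and 0 lower). Hk2, the hexokinase bound to mitochondria, had levels of 0.82, 0.10, 1.76 and 2.16. Both Klotho arrays were above both controls, as in 3436 of the 29189 tested units, and the change was 1.50 ± 0.47 (adjusted p = 0.450). Pfkfb3, which makes the activator of phosphofructokinase, had levels of 2.75, 3.24, 3.67 and 3.60 (0.64 ± 0.43, adjusted p = 0.917). Ldha, the lactate dehydrogenase subunit of muscle, had levels of 6.43, 5.33, 6.33 and 6.00, with overlapping groups (adjusted p = 0.987). The kinases of pyruvate dehydrogenase Pdk1 and Pdk4 changed by -0.36 ± 0.42 and -0.53 ± 0.41 (adjusted p = 0.987 and 0.943).

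Among 16 listed glucose and lactate transporter genes 14 were tested and 0 were called. Of these 1 was at least 2-fold higher in both rows, against 3.54% of all units. That gene was Slc2a6, a facilitative glucose transporter gene, with levels of 2.71, 1.84, 5.40 and 4.80. The groups did not overlap, as in 3436 of the 29189 tested units with Klotho higher. The change was 2.83 ± 0.41, and the adjusted p was 0.0636. Slc2a1, the main glucose transporter of glia and endothelium, had levels of 5.41, 6.35, 4.85 and 5.51, with overlapping groups (-0.70 ± 0.41, adjusted p = 0.890). The monocarboxylate transporter genes Slc16a1 and Slc16a3, through which lactate leaves cells, changed by -0.16 ± 0.42 and 0.42 ± 0.42 (adjusted p = 0.987 and 0.974).

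Genes known to rise in reactive astrocytes did so in part. Of 32 listed 31 were tested and 3 were called higher (Ptgs2, Ptx3 and Cxcl10), against 0.545% of all units. At least 2-fold higher in both rows were 13, against 3.54%, and the median was 0.85. Ptx3, a secreted pentraxin, had levels of 1.84, -1.09, 7.16 and 7.20 (6.80 ± 0.73, adjusted p = 0.0253). Steap4, a metalloreductase, had levels of -0.98, -2.27, 2.08 and 2.58 (3.96 ± 0.55, adjusted p = 0.0569). Lcn2, a secreted iron-siderophore carrier, had levels of 5.02, 2.04, 6.78 and 7.20. Its difference was 1.75 in row 1 and 5.17 in row 2, and it was not called (adjusted p = 0.233). Of the 17 complement genes 1 was called higher, against 0.545% of all units. That gene was factor B (Cfb), with levels of -1.89, -2.01, 3.53 and 3.96. Complement C3 had levels of 8.37, 8.49, 8.45 and 8.24, with overlapping groups (-0.08 ± 0.42, adjusted p = 0.989).

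The homeostatic astrocyte genes did not pass the test in either direction. Of 25 genes 5 had a change above 0 and 20 below, with a median of -0.17 beside -0.09 over all genes with a symbol above background on all 4 arrays. The transcription factor gene Sox9 had levels of 4.31, 3.82, 3.14 and 3.16 (-0.92 ± 0.42, adjusted p = 0.754). Both Klotho arrays were below both controls, as in 5135 of the 29189 tested units. The water channel gene Aqp4 had levels of 4.91, 4.89, 6.30 and 5.07 (0.78 ± 0.48, adjusted p = 0.897). The glutamate transporter gene Slc1a3 had levels of 6.36, 6.29, 6.46 and 6.20, with overlapping groups (adjusted p = 1). Extracellular matrix genes gave 1 call of 36, against 0.545% of all units called higher. Of the 36 genes 33 were above background on all 4 arrays, and the rest entered the test only through the Klotho arrays. Among the 33 genes 1 was called higher, and the median was 0.64. The call was the aggrecan-cleaving protease gene Adamts4 (4.90 ± 0.42, adjusted p = 0.0125).

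Markers of other cells were measured beside these results. In such bulk samples fewer cells of a type and less RNA per cell cannot be told apart. None of the 21 microglia markers was called (0 higher and 0 lower), 5 changes were above 0 and 16 below, and the median was -0.22. Their summed linear level, as multiples of the 75th percentile, was 348.9 and 456.0 on the controls and 375.5 and 379.6 on the Klotho arrays, so the Klotho arrays lay between the controls. Tmem119, a marker of resident microglia, had levels of 1.14, 0.44, -1.04 and 0.71, and Trem2 had 3.47, 4.13, 2.81 and 3.80. Microglia make many of the cytokines above, and their part in the result was not tested.

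Of the oligodendrocyte lineage genes 1 fell, and others were lower without passing the test. Of 18 listed genes 15 were tested and 1 was called lower, Ugt8a, against 0.0137% of all units. At least 2-fold lower in both rows were 7, against 1.04%. Ugt8a and Gpr17 entered the test only through the controls, where they were high, so these counts are no measure of the list. Of the 15 tested genes 1 had a change above 0 and 14 below. Over the 13 genes above background on all 4 arrays the median log2 change was -0.41, with 1 change above 0. Gpr17, a receptor of cells about to become oligodendrocytes, had levels of -0.20, 0.37, -5.80 and -2.94. Both Klotho arrays were far below both controls, and 1 of them was not well above background, so the change of -4.45 ± 0.62 (adjusted p = 0.0569) rests in part on the background. Bcas1, of early myelinating cells, had levels of -0.12, 0.29, -2.95 and -2.39 (-2.76 ± 0.41, adjusted p = 0.0648). The transcription factor gene Sox10 and the myelin gene Mag changed by -1.87 ± 0.43 and -1.89 ± 0.41 and were not called (adjusted p = 0.229 and 0.20). Ugt8a, which makes the myelin lipid galactocerebroside, was above background only on the controls and was at least 3.12-fold lower (adjusted p = 0.0465). Olig1, a transcription factor gene of the same lineage, had levels of 3.05, 2.76, 3.07 and 2.38, with overlapping groups. The summed linear level of the list was 41.09 and 111.5 on the controls and 87.68 and 88.75 on the Klotho arrays. The Klotho sums lay between the controls, but such a sum rests most on the brightest genes. The median level over the 18 listed genes was -1.28 and -1.08 on the controls and -2.98 and -2.72 on the Klotho arrays. By that measure both Klotho arrays lay below both controls. Lists of neurons, interneurons, endothelium with pericytes, meningeal fibroblasts, and ependyma with choroid plexus had 0 calls in either direction.

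The lower side was otherwise sparse. The other 2 called genes with a symbol were Clca3a2 and 9630013A20Rik, each above background only on the controls and at least 4.32-fold and 2.37-fold lower. Dscam, a cell adhesion gene of neurons and glia, was above background on all 4 arrays and had levels of -2.60, -1.77, -4.96 and -4.09 (-2.34 ± 0.41, adjusted p = 0.106).

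The 4 astrocyte arrays with disputed treatment lie on the same slides and rows and did not enter the calls. The brightest probe of a gene was taken over all 16 arrays, these included. The arrays and lists were chosen with earlier results of these data known. By scanner file they are control 2, control 4, Klotho 1 and Klotho 3, the order used next, and by the value table the controls are Klotho arrays and the reverse. Il6 had levels of -4.54, -4.76, 2.75 and -2.17 on them. Csf2 had -6.92, -7.49, 0.29 and -4.06, and Nos2 had -2.07, -2.09, 2.10 and -1.27. Cxcl1 had -0.96, -2.87, 4.82 and 0.10. In all 4 genes Klotho 1 lay between the agreed Klotho arrays and every control, Klotho 3 lay lower but above every control, and controls 2 and 4 lay among or near the agreed controls. Over the 134 called genes, Klotho 1 was above both agreed controls in 133 and below both agreed Klotho arrays in 133. Klotho 3 was above both agreed controls in 47, control 2 in 89 and control 4 in 35, and all 3 arrays were below both agreed Klotho arrays in 134. Over all tested units the shares above both agreed controls were 31.2%, 13.5%, 26.4% and 28.9% for Klotho 1, Klotho 3, control 2 and control 4. The 134 genes were chosen for high values on the agreed Klotho arrays, so a place below both is largely set by that choice.

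**Figure D5:**
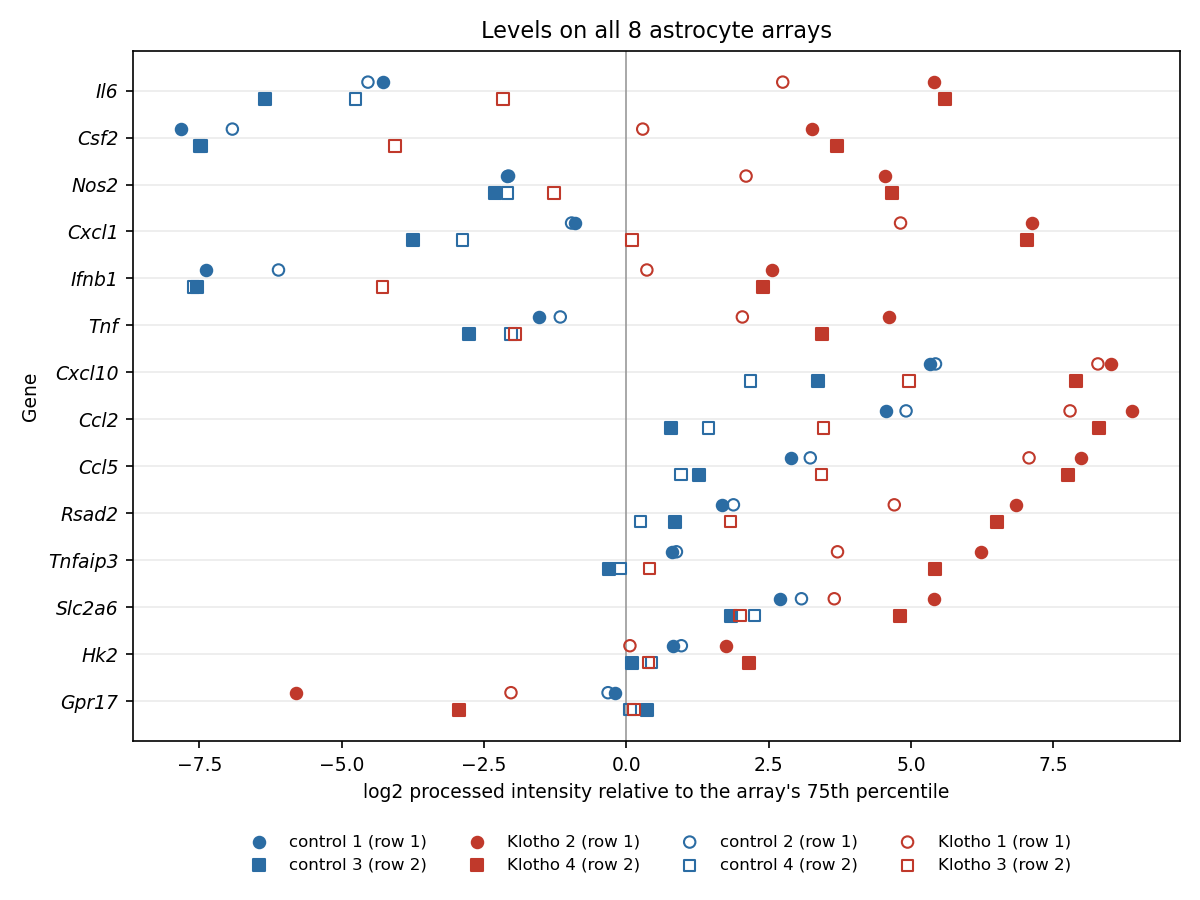
Levels of 14 genes (y axis) on all 8 astrocyte arrays, as log2 processed intensity relative to the array's 75th percentile (x axis), with filled symbols for the 4 agreed arrays and open ones for the disputed arrays named by scanner file. For Il6, Csf2, Nos2 and Cxcl1 the open red circle (Klotho 1) lies between the filled red and the blue points, and the open red square (Klotho 3) lies closer to the blue points.

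The difference between the agreed and the disputed contrast was tested as an interaction over the 8 arrays, with treatment by scanner file. By the value table the disputed contrast has the opposite sign. The interaction was not run that way, so the values below hold for 1 of the 2 assignments. No unit of 30151 was called by limma in either direction (0 higher and 0 lower), with 2736 at an unadjusted p under 0.05 and a smallest adjusted p of 0.351. For Il6 the agreed change exceeded the disputed change by 5.87 ± 1.70 (adjusted p = 0.452) and for Csf2 by 5.81 ± 1.65 (adjusted p = 0.448). Both values rest in part on the background, since neither agreed control of Csf2 and 1 of the 2 of Il6 was well above it. A missed threshold does not show that the contrasts are alike. The disputed contrast alone, by scanner file, had 0 calls and 1386 units at an unadjusted p under 0.05.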

How the data were processed

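RNA of 16 samples of cultured cells was hybridised to 1-colour Agilent arrays, 1 array a sample. Groups came from sample titles and scanner file assignment. Per the file headers, Feature Extraction 12.0.3.1 made the deposited scanner files, whose processed signal is linear intensity, background-subtracted and not normalized between arrays. The table of processed values carries no stated unit. Its deposited values are scores, since every one of the 16 columns is, to within 0.00502, the z-score of log2 intensity on 1 scanner array. Of its columns 10 match their own sample and 6 another. Of the 4 arrays used, control 1 and Klotho 4 match their own column, and control 3 and Klotho 2 match the column of another array of the same treatment. The treatment of the 4 disputed arrays could not be settled here.

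Spots called population outliers were dropped and the spots of each of 55681 probes averaged. The log2 intensity was centred on each array's 75th percentile. Probes took symbols through RefSeq accessions (28331 probes, 50.9%; table assembly GRCm38.p6), and the brightest probe stood for a gene. Units well above background on both arrays of at least 1 group entered limma 3.58.1 (R 4.3.3; lmFit and eBayes, row plus treatment), with p-values adjusted by Benjamini and Hochberg over all units. The method was tested on simulated data. Promoters were found for 12576 of 15851 tested genes. Python 3.11.15, pandas 2.3.3 and matplotlib 3.10.9 served for tables and figures.

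The precision is limited by the number of arrays, 2 a group. The arrays, gene lists and motifs were chosen with earlier results of these data known. Genes are named by a rule: Il6, Csf2, Nos2 and Cxcl1; per direction up to 15 with the largest change above background on all 4 arrays and up to 8 with the largest bound; up to 4 per list with the smallest p; and the Klotho, FGF receptor, glucose and astrocyte genes. Other genes named were chosen after their values were seen, among them Tlr4, Lif, Il1b, Lcn2, C3, Olig1 and Csf1r, and the list members given by name only. The normexp alternative used the median signal, since the scanner files hold no mean signal. The other alternatives changed the centring, the filter, the probe choice, the row term, the arrays and the variance model.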

Additional observations from a re-analysis of the deposited data

How the results depend on the processing

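The count of units called higher (159) and lower (4) depended on the processing. It was 670 and 22 with normexp background correction, 776 and 74 with median centring, 68 and 0 with quantile normalization, 36 and 0 with z-score scaling, and 527 and 138 with no filter on dim probes. It was 2 and 0 without the row term, 1043 and 442 with neuron arrays added, and 306 and 2 with a trended, robust variance. With 1 array left out and no row term, the lone array of its group being assumed to vary like the rest, it was 1318 and 1055 without control 1, 3865 and 472 without control 3, 3 and 0 without Klotho 2, and 6 and 0 without Klotho 4. The causes were not tested. All 163 called units were also called with median centring and with no filter. Of them 158 were called with the mean of probes, 155 with neuron arrays added, 151 with the trended, robust variance and 139 with normexp. Another 3 settings kept 68 (quantile normalization), 36 (z-score scaling) and 2 (no row term). With only units above background on all 4 arrays tested, 83 were called. Units 2-fold higher and lower in both rows (1032 and 303) numbered 630 and 57 with normexp, 647 and 163 when above background on all 4 arrays, and 691 were lower with no filter. The 2-fold counts were not run with z-score scaling, whose units are no folds, and have no row term to drop. The interaction with the disputed arrays, with treatment by scanner file, gave 0 calls under each of the 5 alternatives run. Of the genes named in the text, directions turned only in genes that were not called. Slc1a3 changed by -0.0257 with median centring, -0.145 with quantile and -0.0311 with z-score scaling. Fgfr1 changed by -0.0584 with quantile, -0.0255 with z-score scaling and -0.173 with the mean of probes. Without control 1 the changes were 0.268 for Aldh1l1, -0.232 for Fgfr1 and 0.112 for Tlr4. Without control 3 they were -0.235 for Gfap, -0.263 for Ldha, 0.0507 for Slc16a1 and -0.0379 for Slc1a3. Without Klotho 2 they were 0.0546 for Aldh1l1, 0.237 for Csf1r, -0.028 for Gfap and -0.129 for Slc1a3, and without Klotho 4 they were 0.0228 for C3 and 0.169 for Olig1. No paired analysis was possible because of the replicate numbers, 1 and 3 for the controls and 2 and 4 for Klotho, which are not shared. The slide row, with 1 array of each treatment, is the term whose loss is given above.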

Other observations

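The genes in these paragraphs were chosen after their values were seen. Several called genes belong to groups that the lists did not cover. Has2, which makes the matrix polymer hyaluronan, had levels of -3.87, -6.40, 3.40 and 3.20 on control 1, control 3, Klotho 2 and Klotho 4 and changed by 8.44 ± 0.63 (adjusted p of limma = 0.0101), with 1 control not well above background. Serpinb2, a serine protease inhibitor gene, was at least 39.5-fold higher. The leukocyte adhesion gene Sele, known from endothelium, was at least 67.8-fold higher and was above background on neither control, where the 10 tested endothelial and pericyte markers had 0 calls and a median change of -0.04.

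A few genes of peptide signalling were well above background on both Klotho arrays and on neither control. These were Tac1, Bdkrb1, Bdkrb2 and Calcr. Tac1, which encodes substance P, had levels of -8.37, -7.66, -2.57 and -2.15 and was at least 11.0-fold higher (adjusted p = 0.0101). The bradykinin receptor genes Bdkrb1 and Bdkrb2 were at least 8.04-fold and 6.21-fold higher, and the calcitonin receptor gene Calcr at least 27.2-fold. Tnfsf11, the osteoclast factor RANKL, was at least 26.2-fold higher, Il1f6, the gene of interleukin-36 alpha, at least 21.0-fold, and Wnt10a at least 19.6-fold. Sprr2e, of the cornified envelope of skin, was at least 13.9-fold higher, and Sprr1a of the same family changed by 5.37 ± 0.56 (adjusted p = 0.0234), with 1 control not well above background. Crp, the acute phase protein of liver, was at least 6.95-fold higher, with levels of -8.44, -7.80, -3.13 and -2.92. Cyp24a1, which degrades active vitamin D, changed by 3.39 ± 0.41 (adjusted p = 0.0384).

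The size of the change on the disputed arrays can be set against the agreed ones within a row. Over the 74 called genes above background on all 4 agreed arrays, the linear level on Klotho 1 minus that on control 1 was a median of 16.1% (quartiles 11.9% and 19.5%) of the difference between Klotho 2 and control 1. In row 2 the same share for Klotho 3, against Klotho 4 and control 3, was 1.61% (quartiles 0.792% and 3.17%). For control 2 it was 0.758% in row 1, and for control 4 it was 1.07% in row 2. These genes were chosen by the agreed contrast, and the shares are given as a description.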
